A study of Mus musculus with 20 samples.

Results

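The CD122+T-bet high cells analysed here are sorted single thymocytes of 1 TBGR mouse of 4 weeks, and they were chosen by their sort and depth. They came from the 2 libraries of that mouse that hold this population, the description deposited with each library assigned their well to it, and they held at least 2000 transcripts outside mitochondrial genes and spike-ins and at most 2% of Kcnq1ot1, a marker of low-quality cells. This left 147 cells (92 of 96 sorted in library 1 and 55 of 96 in library 2), among 678 passing cells of the TBGR mouse and 1413 passing cells of the whole series of 20 libraries. TBGR mice carry a Tbx21-ZsGreen transgene on a C57BL/6 background, in which green fluorescence reports T-bet. The labels give the genotype of the TBGR mouse as wild type. Thymocytes were depleted of CD4+ and CD8+ cells on beads and sorted as TCRαβ+ intraepithelial lymphocyte precursors (IELPs) by CD122 and ZsGreen. Beside the CD122+T-bet high gate there were 3 others, called CD122+T-bet int, CD122+T-bet- and, for cells without either protein, CD122-T-bet-, each with 2 libraries of 96 cells. The T-bet high gate and the T-bet int gate were also sorted from 1 TBGR C-myc fl/fl mouse labelled as 2 weeks old, whose floxed alleles are not deleted, in 4 libraries that each hold 48 cells of both populations. The C-myc D/D Cd4 mouse of the series gave T-bet- populations only and was not used here. With 1 mouse per genotype, cells and libraries are not replicates of a condition, so no test was run, and the spread between libraries, which may be technical, is given instead.

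IELPs are thymic precursors of the TCRαβ+ lymphocytes that settle in the epithelium of the gut. They are selected by strong signals through the T cell receptor, lose CD4 and CD8, acquire CD122, the receptor subunit shared by interleukin 2 and interleukin 15, and then switch on T-bet, a T-box transcription factor that drives cytotoxic and NK-like programmes in lymphocytes. Mature IELs of this kind carry NK receptors, granzymes and integrins that bind epithelial cadherin.

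One of the 2 libraries stood apart before any gene was compared. In library 1, 92 of 96 sorted cells passed, and in library 2, 55 of 96 passed, against 84 to 94 in the 6 libraries of the other populations. The median passing cell held 4835 transcripts in library 1 and 3805 in library 2, and the sums over cells were 471371 and 233454 transcripts. The other 3 populations held medians of 5106 to 7076 transcripts and sums of 980381 (CD122-T-bet-), 1468961 (CD122+T-bet-) and 1292437 (T-bet int). Barcodes that received no cell held a median of 105.5 transcripts in T-bet high library 2 and 14.5 to 30 in the other 7 libraries. At 2000 transcripts per cell a median of 1133 and 1024 genes was detected in the 2 libraries, within the 971 to 1145 of the other populations, and mitochondrial transcripts made up 11.3% and 10.1%. The predicted gene Gm10800 took 7.03% and 14.1% of the transcripts of libraries 1 and 2, against 7.17 to 8.42% in T-bet int, 12 and 13.8% in CD122+T-bet- and 21.3 and 29.4% in CD122-T-bet- libraries. Because each of these libraries holds 1 population, library and population cannot be told apart within the TBGR mouse, so levels below are given per library, whereas ratios are from sums over both libraries.

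The population is described first by 6 genes, Tbx21, Id2, Klrk1, Klrb1c, Gzmb and Ly6c2. These markers were chosen with earlier results of these data known, so their levels are no independent check of the label. Of these, Tbx21 encodes T-bet itself, which the gate used through its reporter, so its level is a description of the sort. Values are transcripts per 1000000 transcripts of all genes (CPM), summed over the cells of a library. Tbx21 stood at 214 and 64.3 CPM in the 2 T-bet high libraries, at 40.9 and 55.3 CPM in T-bet int, at 2.58 and 0 CPM in CD122+T-bet- and at 0 in both CD122-T-bet- libraries. The 2 T-bet high libraries lay above all 6 others, but library 2 lay only just above the higher T-bet int library, and without library 1 the log2 ratio to T-bet int was 0.46 in place of 1.77 and no longer called. The other gene of the gate, Il2rb, which encodes CD122, was at 554 and 437 CPM in T-bet high and at 355 and 443 CPM in T-bet int cells, so that these libraries overlapped.

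For the remaining 5 genes, both T-bet high libraries lay above the 6 others. Id2, an inhibitor of E-proteins, was at 1761 and 1606 CPM in T-bet high, at 426 and 481 in T-bet int, at 222 and 163 in CD122+T-bet- and at 182 and 143 in CD122-T-bet- cells. Klrk1, which encodes the activating receptor NKG2D, was at 541 and 583 CPM in T-bet high and at 3.03 and 12.6 CPM in T-bet int cells, with at most 2.07 CPM elsewhere. Gzmb, the serine protease granzyme B, was at 1063 and 767 CPM in T-bet high and at 10.6 and 22.1 CPM in T-bet int cells. Thus Klrk1 and Gzmb were nearly absent from T-bet int cells, whereas Id2 was present there at an intermediate level. Klrb1c was at 613 and 463 CPM in T-bet high, 24.2 and 55.3 in T-bet int, 10.3 and 11.5 in CD122+T-bet- and 0 in CD122-T-bet- cells. This gene encodes NK1.1, and NK1.1 was part of the sort, which the study's methods describe as NK1.1- and the deposited description as NK1.1+. The surface glycoprotein gene Ly6c2 was at 2266 and 1208 CPM in T-bet high and at 156 and 262 CPM in T-bet int cells, with at most 27.1 CPM in the T-bet- libraries.

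**Figure D1:**
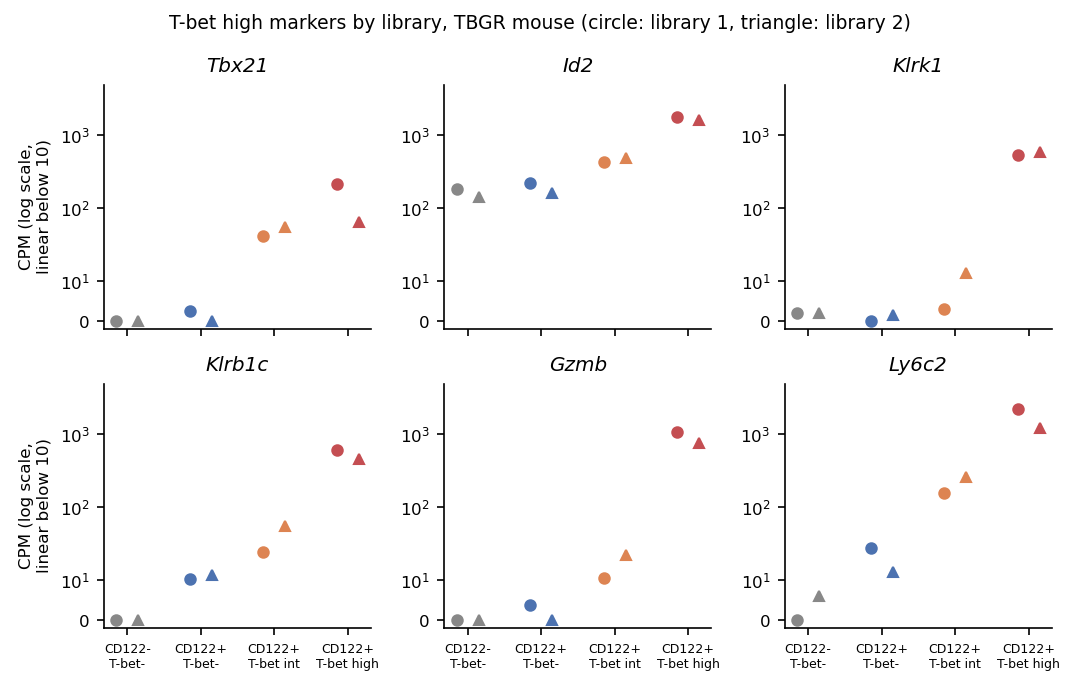
Level of 6 marker genes (CPM, log scale that is linear below 10) in each of the 8 TBGR libraries, 1 point per library and 1 panel per gene. The 2 T-bet high points lie above the other 6 in every panel, by the narrowest margin for Tbx21 in library 2 (64.3 against 55.3 CPM).

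Log2 ratios were computed from sums raised by 0.5 transcripts, and their exact 95% intervals cover counting error only. The ratio to T-bet int cells amounted to 6.10 (5.27 to 7.24) for Klrk1, 5.86 (5.27 to 6.59) for Gzmb, 3.82 (3.41 to 4.29) for Klrb1c, 3.2 (3.01 to 3.40) for Ly6c2, 1.92 (1.77 to 2.06) for Id2 and 1.77 (1.32 to 2.25) for Tbx21. The median ratio of all genes with at least 100 transcripts was -0.13 in this comparison, -0.09 against CD122+T-bet- and 0.20 against CD122-T-bet- cells, and ratios should be read relative to it.

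The bases before the start of the 4 marker genes that held a Runx core motif there are shown next. Runx proteins, Runx3 among them, act together with T-bet in cytotoxic lymphocytes, and the motif was searched as TGTGGT on either strand (ACCACA). The 250 bases before each RefSeq start (GRCm38.p6) were searched, and bases inside the RefSeq extent of the gene itself are not shown, so that the runs for Klrk1 and Ly6c2 are 211 and 155 bases long. All 4 genes are on the minus strand. Each run reads 5′ to 3′ towards the gene, capitals mark the motif, and the position is that of its first base before the start. The regions are chr6:129623904-129624114 for Klrk1 (motif at 129), chr6:128788642-128788891 for Klrb1c (89), chr14:56262335-56262584 for Gzmb (93 and 34) and chr15:75112067-75112221 for Ly6c2 (179, on the other strand).
Klrk1: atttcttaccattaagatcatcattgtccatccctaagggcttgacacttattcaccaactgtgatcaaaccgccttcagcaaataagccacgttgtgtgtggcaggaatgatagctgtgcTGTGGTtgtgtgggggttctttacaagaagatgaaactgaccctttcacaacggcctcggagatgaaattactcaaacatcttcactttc
Klrb1c: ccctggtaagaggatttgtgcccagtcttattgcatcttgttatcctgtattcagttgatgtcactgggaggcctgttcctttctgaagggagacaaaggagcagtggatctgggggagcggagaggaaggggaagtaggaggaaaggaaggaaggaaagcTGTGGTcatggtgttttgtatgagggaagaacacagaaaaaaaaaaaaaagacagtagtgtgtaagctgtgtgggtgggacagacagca
Gzmb: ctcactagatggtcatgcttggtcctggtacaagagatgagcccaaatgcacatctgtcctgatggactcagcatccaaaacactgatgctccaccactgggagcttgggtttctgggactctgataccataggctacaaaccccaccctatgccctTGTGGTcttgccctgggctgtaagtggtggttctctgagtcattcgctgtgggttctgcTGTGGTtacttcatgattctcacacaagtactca
Ly6c2: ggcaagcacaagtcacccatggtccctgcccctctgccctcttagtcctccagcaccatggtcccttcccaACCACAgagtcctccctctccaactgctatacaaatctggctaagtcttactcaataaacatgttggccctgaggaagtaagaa
TGTGGT was found in 41 of the 222 promoters (18.5%) of genes higher in T-bet high cells than in all 3 other populations (the calls are defined below), in 46 of 350 (13.1%) of genes lower, in 13.1% of all 7590 promoters of genes tested and in 15.9% of all 27025 promoters of the table. The core of the T-box half-site, TCACACC, which reads GGTGTGA on the other strand,, was found in 10 of 222 (4.50%), 21 of 350 (6.0%), 3.41% and 3.84%, and in none of the windows of the 6 marker genes. These shares are descriptions of letters in the window and carry no statement on binding.

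A cell was next taken as the unit. Every cell was thinned to 2000 transcripts, so that depth no longer differed, and the number of the 6 markers with a transcript was counted. At least 3 markers were found in 87 of 92 cells of T-bet high library 1 (94.6%, exact binomial interval 87.8 to 98.2%) and in 44 of 55 cells of library 2 (80.0%, 67.0 to 89.6%). The same was true of 5 of 171 T-bet int cells (2.92%, 0.956 to 6.69%) and of none of the 186 CD122+T-bet- cells or the 174 CD122-T-bet- cells, which at this depth allows shares of up to 1.96% and 2.10% of cells with 3 markers detected. With all transcripts used, all 92 cells of library 1 and 49 of 55 cells of library 2 had at least 3 markers, and 35 of 171 T-bet int cells (20.5%) and 4 of 186 CD122+T-bet- cells (2.15%) did. Of these 35 T-bet int cells, 28 were in library 2 and 7 in library 1, and 20 had exactly 3 markers. Median depth was 6348 transcripts in T-bet int and 4309 in T-bet high cells, and at 2000 transcripts no T-bet int cell had over 3.

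**Figure D2:**
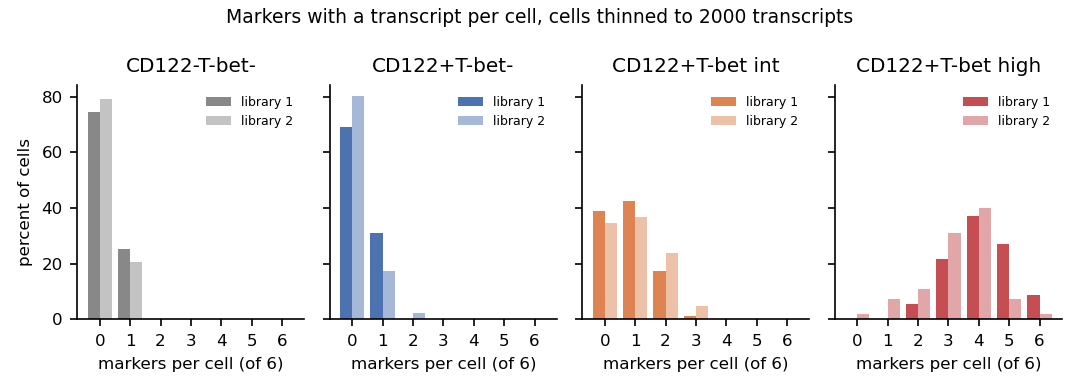
Percentage of cells with 0 to 6 of the 6 markers after thinning to 2000 transcripts, by population (panels) and library (dark bars library 1, light bars library 2). T-bet high cells peak at 4 markers in both libraries, T-bet int cells at 1, and no cell of the T-bet- populations has over 2.

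The share of cells with a transcript differed among the markers. At 2000 transcripts, Id2 was detected in 95.7% and 89.1% of T-bet high cells of libraries 1 and 2, Ly6c2 in 95.7% and 69.1%, Klrb1c in 63.0% and 58.2%, Gzmb in 67.4% and 52.7% and Klrk1 in 57.6% and 50.9%. In T-bet int cells of both libraries together, Id2 was detected in 49.1%, Ly6c2 in 26.3%, Klrb1c in 4.09%, Gzmb in 2.34% and Klrk1 in 0.585%, and in CD122-T-bet- cells Id2 was still detected in 23%. Tbx21 was seen in 32.6% and 9.09% of T-bet high and in 4.6% and 9.52% of T-bet int cells, so that T-bet high library 2 lay within T-bet int by this measure. With all transcripts, its share of 18.2% was below the 18.4% and 28.6% of T-bet int, and library 1 was at 56.5%. For the T cell receptor complex, Trbc1 was detected in all 147 T-bet high cells, Cd3g in 80.4% and 67.3% of libraries 1 and 2, Cd3e in 82.6% and 50.9% and Cd3d in 70.7% and 58.2%. Trac was detected in 30.4% and 21.8%, and in 9.20% and 7.14% of T-bet int cells. The coreceptor genes were rare, with Cd4 in 6.52% and 1.82%, Cd8a in 4.35% and 1.82% and Cd8b1 in no T-bet high cell at this depth. With all transcripts, 2 of 147 cells held Cd8b1 (1.36%).

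Single cells of library 2 stood out by a few genes. In 5 of its cells, Mme, which encodes the endopeptidase CD10, reached 15 to 32 transcripts, with 2006 to 3876 transcripts in all, 2.95 to 7.29% of mitochondrial transcripts and 0 or 1 transcript of each CD3 gene. These 5 cells carried 0 to 5 of the 6 markers. Another cell, with 12294 transcripts, held 30 transcripts of the recombinase gene Rag1, 18 of Dntt and 7 of Ptcra, together with 9 of Mki67, and it carried 5 of the 6 markers. A further cell held 10 transcripts of Mki67, 13 of Top2a and 20 of Stmn1, with 4 markers. In library 1 no cell had over 3 transcripts of Mme, and Rag1 was seen as 1 transcript in each of 2 cells. Rag1 and Mme met the rule for a higher level in T-bet high than in T-bet int cells (log2 ratios 3.81 and 2.00), but without library 2 Rag1 had too few transcripts to be tested and the ratio of Mme was 0.65.

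**Figure D3:**
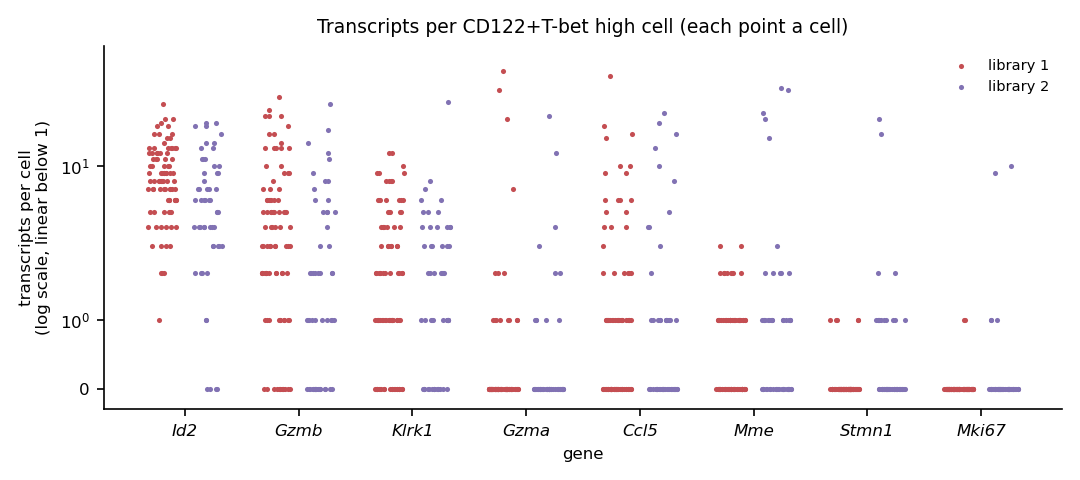
Transcripts per cell (log scale that is linear below 1) of 8 genes in the 147 T-bet high cells, each point a cell, by library. Id2, Gzmb and Klrk1 are spread over most cells, whereas Gzma, Mme, Stmn1 and Mki67 are high in few cells, those of Mme and Mki67 in library 2.

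Across genes, a gene was called higher or lower if its log2 ratio passed 1 in either direction and both T-bet high libraries lay outside all libraries compared. Against all 3 other populations at the same time, 319 of 10470 genes with enough transcripts were higher (3.05% called) and 466 were lower (4.45% called). With every cell thinned to 2000 transcripts these counts were 188 and 300, and without T-bet high library 1 the number lower was 915. A gene nearly absent from the populations compared could have enough transcripts through T-bet high cells alone. Counts of higher genes, here and in the lists below, therefore partly follow this filter. Against T-bet int cells alone, 679 of 8564 genes were higher (7.93%) and 1001 were lower (11.7%). When the scale was set by the median of ratios in place of the total, the same comparison gave 923 higher and 778 lower genes, so the balance of both directions depends on the scale. Against CD122+T-bet- cells 7.11% of genes were higher and 13.3% lower, and against CD122-T-bet- cells 13.1% and 8.12%. Of the 319 genes above all populations, 225 differed by less than 2-fold between the T-bet int gate and CD122+T-bet- cells and 78 (24.5%) were already at least 2-fold higher in T-bet int. Of the 466 genes below all populations, 352 differed by less than 2-fold between these 2 earlier populations and 106 (22.7%) were already lower in T-bet int.

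NK receptors survey other cells for MHC class I and for ligands of stress, and many of them were higher in T-bet high cells. Of 22 genes of the list tested against T-bet int cells, 12 were higher and 3 lower, with a median log2 ratio of 1.17 against -0.09 for all genes. Over all genes, 7.93% were higher and 11.7% lower. Klrc1, which encodes NKG2A, was at 344 and 343 CPM in T-bet high, at 4.55 and 0 CPM in T-bet int (log2 ratio 6.99, 5.64 to 9.50) and at 0 in the 4 T-bet- libraries. Klrc1 was at least 112-fold higher than in CD122-T-bet- and at least 168-fold higher than in CD122+T-bet- cells, taking 3 transcripts as the floor of a population at 0. Klrc2, which encodes NKG2C, stood at 299 and 330 CPM against 10.6 and 0 in T-bet int, and Klre1, another receptor of the family, at 180 and 192.8 CPM against 3.03 and 0. Klrk1, Klrc1, Klrc2 and Klre1 passed the minimum of transcripts against T-bet int only through T-bet high cells. The count of 12 therefore partly follows this filter. The authors discarded reads that map to several loci, so the levels of close copies such as Klrc1, Klrc2 and the Klra genes are uncertain.

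Signalling partners of these receptors were next compared. Hcst, the adaptor DAP10 that pairs with NKG2D, was at 359 and 184 CPM in T-bet high and at 81.8 and 93.3 CPM in T-bet int cells (log2 ratio 1.78, 1.45 to 2.12). Styk1, a receptor-like kinase, was at 195 and 116 CPM against 0 and 1.58 CPM, with 1 transcript in T-bet int (log2 ratio 7.19, 5.26 to 13.1). Against T-bet int, Styk1 also passed the minimum of transcripts only through T-bet high cells. Slamf7, an activating receptor of NK cells, was at 172 and 103 CPM against 9.09 and 20.6 CPM, and it passed this minimum in the same way. In contrast, Klrd1, which encodes CD94, the partner of NKG2A and NKG2C, was already at 330 and 310 CPM in T-bet int cells and at 624 and 433 CPM in T-bet high cells, and its ratio of 0.81 did not pass 1. Klrb1a was lower, with 2.12 and 0 CPM in T-bet high against 141 and 128 CPM in T-bet int cells. Cd160 and Cd244 were also lower than in T-bet int, with ratios of -1.29 and -1.86, although Cd244 rested on 5 transcripts. Without library 2 Cd160 was at -0.97 and no longer called, and without library 1 it was at -2.25. Ncr1 and Eomes, which mark conventional NK cells, were at 0 in both T-bet high libraries.

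Many of these receptors share 1 cluster of genes, the NK gene complex, which lies at chr6:128609227-130386874 from Klrb1a to Klra1 in RefSeq (GRCm38.p6). Of the 19 genes tested in this interval, 9 were higher in T-bet high cells than in all 3 populations and none was lower, against 3.05% of the 9421 tested genes with a RefSeq position. The 9 were Klrb1c, Klrb1f, Klre1, Klrk1, Klrc2, Klrc1, Klri2, Klra4 and Klra10, of which Klra4 was not called without T-bet high library 1 or with every cell thinned. At least Klrk1 and Klrc1 passed the minimum of transcripts only through T-bet high cells. The count of 9 among 19 therefore partly follows the filter. Neighbours in the same interval that were not called against T-bet int included Cd69 (log2 ratio -0.22), Clec2d (0.66), Klra7 (0.29) and Klra1 (-0.41). Klra10 was at 1027 and 1011 CPM in T-bet high and at 150 and 157 CPM in T-bet int cells, as counted by the annotation used, in which its reads may belong to another Klra gene.

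Of 19 cytotoxic effectors and chemokines tested against T-bet int, 8 were higher, none was lower and 11 were not called (median 0.98). The shares over all genes were 7.93% higher and 11.7% lower. Beside Gzmb, Fasl, the ligand that triggers death through Fas, was at 138 and 137 CPM in T-bet high and at 1.52 and 6.32 CPM in T-bet int cells. Ifng, the effector cytokine interferon γ, was at 117 and 111 CPM against 12.1 and 11.1 CPM. Both were alike in the 2 T-bet high libraries, and each was detected in a minority of cells (19.7% and 15.6% at 2000 transcripts). Xcl1, a chemokine for cross-presenting dendritic cells, was at 526 and 253 CPM against 214 and 147 CPM. In library 2 alone, Xcl1 lay less than 2-fold above both T-bet int libraries. Serpinb9, an inhibitor of granzyme B, was at 180 and 94.2 CPM against 37.9 and 15.8 CPM. The pore-forming Prf1 was at 46.7 and 4.28 CPM, and 0 in T-bet int, which makes it at least 14.1-fold higher, but 22 of its 23 transcripts came from library 1, without which it had too few to be tested. Against T-bet int, Prf1, Fasl and Ifng passed the minimum of transcripts through T-bet high cells alone. Gzmk, Gzmm and Ccl3 were at 0 in T-bet high cells.

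Some effector genes were already present at the T-bet int stage. Ccl5 was at 443 and 505 CPM in T-bet high and at 368 and 313 CPM in T-bet int cells (log2 ratio 0.44), and Nkg7, a granule membrane protein, was at 866 and 767 against 456 and 384 CPM (0.98), so that neither passed 1. Gzma differed from Gzmb in its spread. It was at 240 and 210 CPM in T-bet high against 4.55 and 1.58 CPM in T-bet int, but CD122-T-bet- library 2 held 286 CPM, so that it was not higher than all populations. Against T-bet int, Gzma passed the minimum of transcripts through T-bet high cells alone. Only 26 of 147 T-bet high cells had a Gzma transcript and 5 cells held 77.2% of the 162 transcripts. Its Fano factor at 2000 transcripts, the variance over cells divided by the mean, was 9.62, against a median of 1.17 and a 95th percentile of 1.78 over 1617 genes. Gzmb (3.29), Ly6c2 (2.36) and Id2 (1.44) were less dispersed.

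Transcription factors were described in an effector and memory list and in an immature and T lineage list. Of 15 effector and memory factors tested against T-bet int, 5 were higher, none was lower and 10 were not called (median 0.86, and 0.19 without library 1). For comparison, 7.93% of all genes were higher and 11.7% lower. Bhlhe40, a factor of activated lymphocytes, was at 125 and 55.7 CPM against 10.6 and 9.49 CPM, and Hopx was at 274 and 206 against 72.7 and 79.1 CPM. Bhlhe40 passed the minimum of transcripts against T-bet int only through T-bet high cells. Maf was at 293 and 103 CPM against 86.4 and 77.5 CPM, and without library 1 its ratio of 1.48 was 0.35 and no longer called. Runx3 was at 282 and 192.8 against 179 and 163 CPM, with a log2 ratio of 0.56 that was not called.

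Of 24 immature and T lineage factors, 14 were lower than in T-bet int cells and 2 higher (median -1.22), against 11.7% and 7.93% of all genes. Ikzf2, which encodes Helios, a factor of agonist selection, was at 91.2 and 94.2 CPM in T-bet high, at 1058 in both T-bet int libraries, at 1232 and 1469 in CD122+T-bet- and at 254 and 427 CPM in CD122-T-bet- cells. Id3, the relative of Id2 that also inhibits E-proteins, was at 8.49 and 4.28 CPM against 329 and 248 CPM in T-bet int (log2 ratio -5.21, -6.98 to -4.11). Thus the levels of Id3 and Id2 moved in opposite directions between the same libraries. Sox4 was represented by 1 transcript in all T-bet high cells, at 0 and 4.28 CPM, against 117 and 120 CPM in T-bet int and 504 and 466 CPM in CD122+T-bet- cells. Tcf7, which encodes TCF-1, was at 50.9 and 94.2 CPM against 561 and 504 CPM. Nr4a1, which encodes Nur77 and follows signals of the T cell receptor, was at 19.1 and 4.28 CPM against 97.0 and 133 CPM. Lef1, Tox, Myb, Bach2, Egr2 and Nr4a2 were also below all 3 populations. The 2 factors above T-bet int were Bcl11b (327 and 257 against 127 and 136 CPM) and Zbtb7b, which encodes ThPOK (119 and 42.8 against 13.6 and 26.9 CPM), and neither was above CD122-T-bet- cells. Without library 1 the ratio of Bcl11b was 0.97 in place of 1.21 and no longer called. Myc, which the series deletes in another mouse, was at 50.9 and 30 CPM against 69.7 and 66.4 CPM (log2 ratio -0.62, not called).

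**Figure D4:**
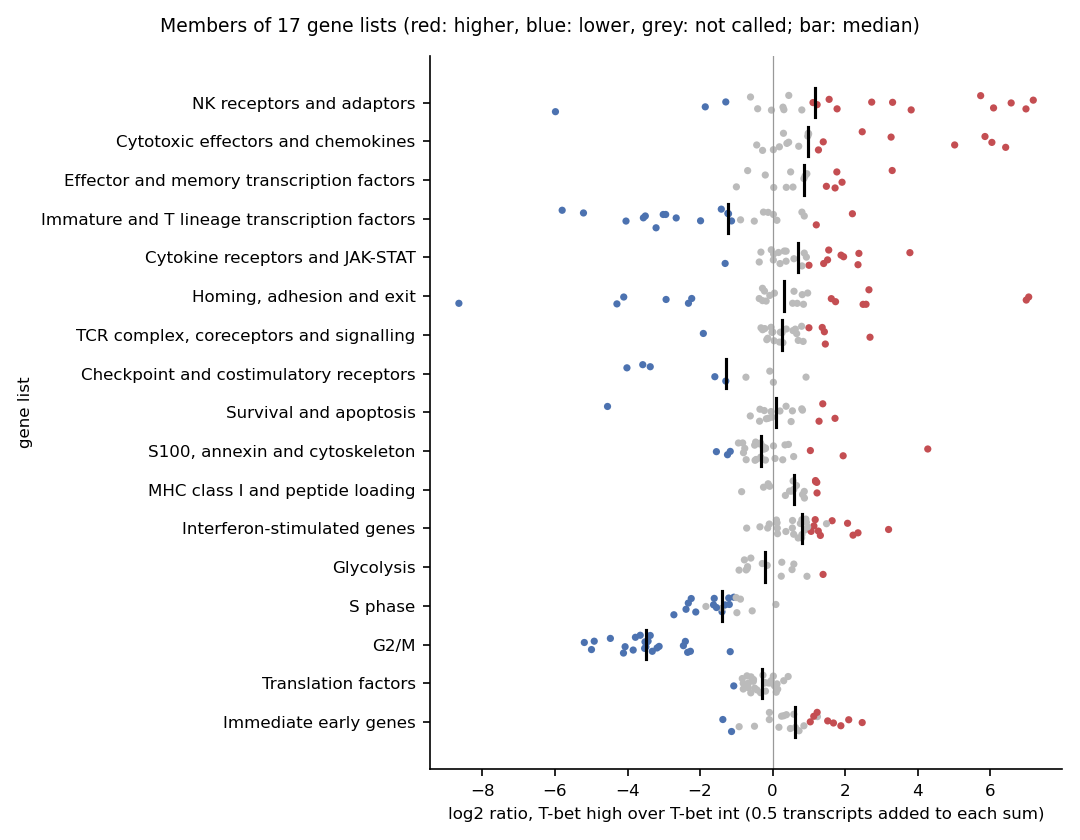
Log2 ratio of T-bet high to T-bet int cells for each tested member of 17 gene lists, with red points called higher, blue points called lower, grey points not called, and a bar at the median of the list. Medians run from -3.49 for the G2/M list to 1.17 for NK receptors, and homing genes fall on both sides.

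Of 16 listed checkpoint and costimulatory receptors, 9 were tested against T-bet int, of which 5 were lower, none was higher and 4 were not called (median -1.29, and -0.63 without library 1). In this comparison 11.7% of all genes were lower and 7.93% higher. Pdcd1, which encodes PD-1, was at 6.36 and 12.9 CPM in T-bet high, 124 and 94.9 CPM in T-bet int and 245 and 254 CPM in CD122+T-bet- cells. Slamf6 was at 2.12 and 25.7 CPM against 185 and 158 CPM. Icos, at 350 and 223 CPM in T-bet high, overlapped with T-bet int cells (191 and 421 CPM).

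Of 24 tested genes of cytokine receptors and JAK-STAT signalling, 9 were higher than in T-bet int, 1, Stat5a, was lower and 14 were not called (median 0.70, or 0.31 without T-bet high library 1). Of all genes, 7.93% were higher and 11.7% lower. Il7r, the receptor of interleukin 7, was at 1154 and 857 CPM in T-bet high, 239 and 332 in T-bet int, 253 and 150 in CD122+T-bet- and 322 and 139 CPM in CD122-T-bet- cells. Il18rap, a subunit of the interleukin 18 receptor, was at 278 and 283 CPM against 50 and 56.9 CPM, and Il18r1 at 219 and 188 CPM against 72.7 in both T-bet int libraries. The feedback inhibitors Socs2 (95.5 and 47.1 against 1.52 and 9.49 CPM) and Cish (65.8 and 38.6 against 10.6 and 11.1 CPM), which follow STAT5 signals, were higher as well. Against T-bet int, Socs2 and Cish passed the minimum of transcripts only through T-bet high cells. Without library 1, Socs2 had too few transcripts to be tested.

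Genes of homing and adhesion split into both directions, with 7 of 26 higher and 6 lower than in T-bet int (median 0.30, and -0.03 without library 1). Among all genes, 7.93% were higher and 11.7% lower. Members called higher are given first. Cdh1, which encodes E-cadherin, was at 153 and 137 CPM in T-bet high, 0 and 1.58 CPM in T-bet int, 0 in CD122+T-bet- and 0 and 2.01 CPM in CD122-T-bet- cells. Itgae, the CD103 chain that binds E-cadherin, was at 352 and 296 CPM against 95.5 and 104 CPM in T-bet int. Itga1, the collagen-binding CD49a, was at 55.2 and 42.8 CPM and at 0 in the other 6 libraries, at least 22-fold higher than in T-bet int, although it passed the minimum of transcripts only through T-bet high cells and had too few without library 1. Cdh1 also passed this minimum only through T-bet high cells. Cxcr3, a chemokine receptor gene under the control of T-bet, was at 297 and 231 CPM against 47.0 and 39.5 CPM, with 0 in the T-bet- populations. Cd44 was at 407 and 356 CPM against 65.2 and 72.7 CPM, and Cxcr6 at 566 and 467 against 195 and 150 CPM.

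Other members of the homing and adhesion list were lower. S1pr1, the receptor that guides thymocytes out, was at 8.49 and 12.9 CPM in T-bet high and at 192.4 and 172 CPM in T-bet int cells. Ccr9, the gut-homing receptor, was at 4.24 and 17.1 CPM against 53.0 and 37.9 CPM, and it was highest in CD122-T-bet- cells (1203 and 1496 CPM). Ccr7 was represented by 2 transcripts. Itga4, the α4 integrin chain, was at 59.4 and 55.7 CPM against 394 and 509 CPM, and Emb, which encodes embigin, was at 0 in both T-bet high libraries against 252 and 319 CPM, at least 66.9-fold lower.

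The genes that were lowest relative to all 3 populations included several without a role in these lists. Nrgn, a calmodulin-binding protein, was at 2.12 and 4.28 CPM in T-bet high against 571 and 449 CPM in T-bet int and 1131 and 1074 CPM in CD122+T-bet- cells. Igfbp4 was at 2.12 and 0 against 130 CPM in both T-bet int libraries, with 1 transcript in all T-bet high cells. Of the 10 lowest against T-bet int alone, Basp1 was at 4.24 and 4.28 against 221 and 209 CPM. Tnni1, a troponin gene, was at 0 in T-bet high and at 102 and 104 CPM in T-bet int cells, at least 24.2-fold lower. At the other end, Fgl2 was at 730 and 557 CPM against 24.2 and 26.9 CPM, and Ctla2a, a cathepsin inhibitor, at 314 and 296 against 10.6 and 6.32 CPM. Ctla2a passed the minimum of transcripts against T-bet int only through T-bet high cells. Gm37298, Nsg2, Trib1, Tmcc3, Arhgap20 and Blk completed, with Emb, Nrgn, Igfbp4 and Sox4, the 10 lowest against all 3 populations, and in T-bet high cells they held 0 to 5 transcripts each.

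Proliferation genes were compared with each population in turn. All 23 tested genes of the G2/M list were lower than in T-bet int cells (median log2 ratio -3.49), as were 13 of 20 S phase genes, and none was higher. The share of all genes that were lower was 11.7%, and 7.93% were higher. The summed level of the 24 listed G2/M genes was 108 and 655 CPM in T-bet high, 3270 and 3249 in T-bet int, 1953 and 1767 in CD122+T-bet- and 167 and 109 CPM in CD122-T-bet- cells. For the 20 S phase genes the sums were 647 and 1568 CPM in T-bet high, 2506 and 2098 in T-bet int, 1744 and 1515 in CD122+T-bet- and 715 and 503 CPM in CD122-T-bet- cells. Library 2 thus lay within the range of CD122+T-bet- cells for S phase, and above CD122-T-bet- cells for both lists. No gene of either list was below all 3 populations. In T-bet high library 2, 108 of the 153 G2/M transcripts (70.6%) and 190 of the 366 S phase transcripts (51.9%) came from the 2 cells with most of each. Without library 2 the G2/M median was -5.14 and the S phase median -2.03, and without library 1 they were -2.19 and -0.56. Mki67 was detected in 2 of 92 cells of library 1 and 5 of 55 cells of library 2 at 2000 transcripts, against 31.0% of T-bet int cells.

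Of 33 interferon-stimulated genes, 10 were higher and none lower than in T-bet int (median 0.81). All genes gave 7.93% higher and 11.7% lower, the shares beside which each list of this paragraph stands. Ifit3 was at 219 and 150 CPM against 66.7 and 15.8 CPM, Isg20 at 153 and 116 against 39.4 and 26.9 CPM, and Ly6a at 240 and 321 against 62.1 and 41.1 CPM. Of 17 genes of MHC class I and peptide loading, 4 were higher (median 0.59), among them H2-D1 at 3244 and 2617 CPM against 1344 and 1260 CPM, and H2-Q6. The level of H2-Q6 is uncertain, because reads that also map to close copies were discarded by the authors. B2m, the light chain of MHC class I, was at 4071 and 4279 CPM against 3086 and 2659 CPM, a ratio of 0.52. Of 24 immediate early genes 8 were higher and 2 lower (median 0.61, or 0.14 with every cell thinned to 2000 transcripts), with Dusp2 at 1385 and 844 against 273 and 383 CPM, Dusp1 at 352 and 278 against 60.6 and 56.9 CPM, and Fos at 84.9 and 60 against 197 and 202 CPM. Thy1 was at 1330 and 797 CPM against 139 and 220 CPM and was called together with Trac, Txk, Cd6 and Lat among 26 genes of the T cell receptor list, of which Cd8a was lower. Lat and H2-Q6 were no longer called without library 1 (0.44 and 0.87). Glycolysis (1 of 14 higher, none lower, median -0.22), translation factors (1 of 28 lower, median -0.30) and survival genes (3 of 18 higher, 1 lower, median 0.10) had these calls beside 7.93% higher and 11.7% lower over all genes. The glycolysis median was -0.02 without T-bet high library 2 and -0.65 without library 1, and the survival median changed sign under 4 alternative settings. In the S100, annexin and cytoskeleton list 3 of 30 were higher and 3 lower (median -0.32), near the shares of all genes. Its members include Vim at 507 and 373 CPM against 1365 and 1344 CPM, and Capg at 314 and 197 CPM against 78.8 and 63.2 CPM.

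Markers of other cells were counted beside these results, as summed CPM of each list in the 2 T-bet high libraries and then in the 2 T-bet int libraries. NK cell and ILC1 markers were at 67.9 and 47.1 against 43.9 and 63.2 CPM, with Ncr1, Eomes and Khdc1a at 0. Of the 3 members tested against T-bet int, 1 was called higher and 1 lower, beside 7.93% and 11.7% of all genes. Their median log2 ratio was 0.45, and 1.10 without T-bet high library 2. Markers of NKT cells stood at 67.9 and 60 against 244 and 240 CPM. Markers of γδ T cells were at 1555 and 981 against 852 and 1266 CPM, nearly all from Tcrg constant genes, with Trdc, Sox13, Trdv4 and Il17a at 0. Markers of B cells were at 189 and 192.8 against 288 and 323 CPM with 5 of 9 genes at 0, Cd79a and Ms4a1 among them, and those of myeloid and dendritic cells at 159 and 133 against 148 and 117 CPM with 6 of 13 listed genes at 0. Foxp3 was at 0, and the regulatory T cell list stood at 242 and 214 against 250 and 202 CPM. Markers of CD4+CD8+ thymocytes were at 70.0 and 296 against 168 and 191 CPM, and the value of library 2 includes the cell with Rag1 and Dntt. Their part in the results was not tested.

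The same contrast was then described for the fl/fl mouse, where both populations were sorted into the same 4 libraries, with 112 T-bet high and 116 T-bet int cells in all. Of 6908 genes tested there, 2.37% were called higher and 4.68% lower, with the direction shared by all 4 libraries. Of the 679 genes higher in the TBGR mouse, 368 were tested in the fl/fl mouse, 72 of these (19.6%) were called higher and 114 (31.0%) were higher in every library, against 7.05% of all genes. Of the 1001 lower genes, 782 were tested, 102 (13%) were called lower and 221 (28.3%) were lower in every library, against 16.7% of all genes. All 6 markers were called higher, with log2 ratios over the libraries of 2.54 to 5.59 for Klrk1, 1.73 to 5.54 for Klrb1c, 1.54 to 4.37 for Gzmb, 2.42 to 3.99 for Ly6c2, 0.40 to 2.26 for Tbx21 and 0.23 to 2.01 for Id2. The gate used the reporter of Tbx21 in this mouse as well. The 6 markers were chosen with earlier results of these data known, so their calls are no independent check of the label. Cxcr3 (summed ratio 2.30), Ifng (3.06), Gzma (3.61) and Klrd1 (3.05) were also called higher, and Id3 (-1.78), Ikzf2 (-1.06), Tcf7 (-1.62), Pdcd1 (-2.84) and Nrgn (-2.87) lower. Of these, Klrd1 was not called in the TBGR mouse, where its log2 ratio was 0.81.

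G2/M and S phase genes were compared in the same way. The summed G2/M level of T-bet high cells in the 4 fl/fl libraries was 3718, 2511, 3709 and 1777 CPM, against 2303, 2926, 2059 and 1962 CPM in T-bet int cells of the same libraries. Of 23 G2/M genes tested there, 2 were called higher and none lower (median 0.60). The summed S phase level was lower in T-bet high cells of all 4 libraries, at 1955, 1774, 2278 and 1385 CPM against 3543, 3268, 3739 and 2443 CPM, and 4 of 20 S phase genes were called lower (median -0.91). Il7r, with ratios of -0.88 to 0.25 over the libraries, Thy1 (-0.95 to 1.15) and Dusp2 (-0.12 to 1.37) were not called. Genotype, age, mouse and the layout of the libraries differ together between these 2 sets, so they cannot be told apart.

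**Figure D5:**
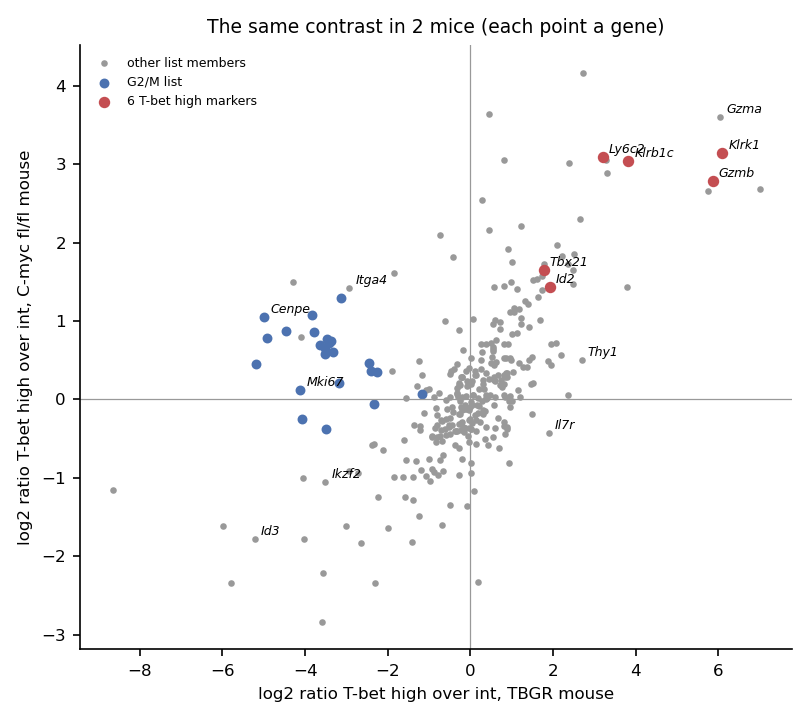
Log2 ratio of T-bet high to T-bet int cells in the TBGR mouse (x axis) and in the C-myc fl/fl mouse (y axis) for list members tested in both, each point a gene. The 6 markers (red), chosen with earlier results of these data known, are above 0 on both axes. The G2/M genes (blue) are all below 0 in the TBGR mouse but mostly above 0 in the fl/fl mouse (median 0.60).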

How the data were processed

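Single IELPs were prepared by CEL-Seq2, which reads the 3′ end of transcripts and tags each molecule with a UMI of 6 bases. Per the labels and the study's methods, the authors used bcl2fastq 2.17.1.14 and BWA 0.6.2-r126, mapped to GENCODE VM9 transcripts and deposited estimated counts of transcripts, corrected for UMIs drawn more than once and not normalized. These expected counts were rounded. A cell entered at 2000 transcripts or more and no more than 2% of Kcnq1ot1. Cells were sorted singly and no doublet caller was run, so whether cells with mixed markers were doublets was not tested. The authors' low-quality gene filter was an added alternative only. Well barcodes are shared by design, 96 of 96 between libraries of the same number.

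Transcripts were summed per library and divided by the total (CPM). Genes with at least 20 transcripts over the groups compared were tested, and called at a log2 ratio of at least 1 or at most -1 with libraries apart. In the fl/fl mouse the direction had to hold in all 4 libraries. Exact 95% Poisson and binomial intervals cover counting error only, and UMIs of 1 mouse are no replicates. No count model was run, because the study has 1 mouse per genotype. Python 3.11.15 was used with numpy 2.4.6, pandas 2.3.3, scipy 1.17.1 and matplotlib 3.10.9. Calls against T-bet int were also tried on simulated counts. These held counting error only, so they do not cover differences in composition between libraries of a population.

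Named genes are the 6 markers, for each comparison the 10 most changed called genes in each direction with at least 100 transcripts, the 10 genes with most transcripts and the 10 with the largest Fano factor, up to 6 called and 4 abundant members of each list, and genes the study names. Genes named outside this rule are members of fixed lists or neighbours in the NK gene complex, and the single cells of library 2 were chosen after their values were seen. The members, the markers and the 25 lists were chosen with earlier results of these data known. Values of some withheld genes are not reported here. Alternatives changed the scale, weights, depth, cell minimum, gene minimum, added count, rounding and libraries.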

Additional observations from a re-analysis of the deposited data

Results flagged for a closer look

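The barcodes without a cell in T-bet high library 2 held a median of 105.5 transcripts, outside the main measurement, against 14.5 to 30 in the other 7 TBGR libraries, and their sum was 11858 against 1567 to 3864. In these 96 barcodes Nrgn was seen 13 times, Stmn1 13 times, Mki67 9 times, Ikzf2 7 times, Ly6c2 6 times, Id2, Klrk1 and Klrb1c once each, and Gzmb and Sox4 not at all. Their part in the values of library 2 was not tested.

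For 3 of the genes reported here that the rule names, every pair of T-bet high and T-bet int libraries of the TBGR mouse pointed one way and every library of the C-myc fl/fl mouse the other. Itga4 was lower in the TBGR mouse (log2 ratio -2.94) and higher in the fl/fl mouse (1.42, from 0.46 to 2.36 over the 4 libraries). S1pr1 stood at -4.10 and 0.80 and Ube2c, a ubiquitin-conjugating enzyme of mitosis, at -4.92 and 0.79. Cd244, which the rule does not name, met the same description, at -1.86 on 5 T-bet high transcripts in the TBGR mouse and 1.61 in the fl/fl mouse. For the other 3 genes, the fl/fl ratios rested on 53 to 95 transcripts in T-bet int and 76 to 205 in T-bet high cells. The difference between the mice was not tested.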

How the results depend on the processing

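Scaling by the median of ratios, leaving ribosomal protein genes out of the totals, equal weight per cell, other cell minimums, 1 transcript added and unrounded values left the 4 counts of called genes within 1.5-fold. Thinned to 2000 transcripts, 188 genes were higher and 300 lower than in all 3 populations, and 381 higher and 540 lower than in T-bet int, with fewer genes past the minimum. Against T-bet int, a minimum of 50 transcripts gave 384 higher and 576 lower, and no minimum gave 1264 higher and 1905 lower.

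Without each library in turn, 289 to 478 genes were higher and 434 to 915 lower than all 3 populations, the 915 without T-bet high replicate 1, and 600 to 874 higher and 813 to 1309 lower than T-bet int. Of the 319 higher and 466 lower genes, 275 and 388 kept their call without T-bet high replicate 2, 201 and 319 without T-bet high replicate 1, and 149 and 160 when thinned. Of 114 called named genes, 27 lost the call or had too few transcripts without T-bet high replicate 1, and 7 without replicate 2 (Anxa1, Bcl2l1, Cd160, Fcgr3, Ikzf4, Mme and Rag1). The same held for 32 when thinned to 2000 transcripts, Cish, Cd6 and Egr2 among them, and for 19 at a minimum of 50 transcripts. Without T-bet int replicate 1 it held for 12, and without T-bet int replicate 2 for 15. No called gene was called in the other direction in any of these settings. After the data were seen, genes that correlate with low-quality markers were left out, which gave 274 and 561 against all 3 populations and 749 and 915 against T-bet int. The causes of these shifts were not tested. No paired analysis was possible because, between TBGR libraries, the same number marks only a shared set of well barcodes. The fl/fl ratios are within each library, and with 1 mouse they were not tested.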

Other observations

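The genes with most transcripts in T-bet high cells, apart from ribosomal protein genes other than the retrogene Rps27rt, were Gm10800, Gm26870, Eef1a1, Tpt1, Malat1, Actb, Tmsb4x, B2m, Trbc1 and Rps27rt. The Fano factors of Gm10800 and Gm26870 over the cells of both libraries were 199 and 25.4, with 58.4 and 8.99 in library 1 and 243 and 29.5 in library 2. Both belong to a set of 20 genes whose levels follow 4 low-quality markers named in the methods. This set took 9.07% and 18.1% of the transcripts of T-bet high libraries 1 and 2, 10.2% and 9.0% in T-bet int, 14.5% and 17.2% in CD122+T-bet- and 26.2% and 36.8% in CD122-T-bet- cells. Ribosomal protein genes held 14.3% and 14.6% of the transcripts in T-bet high, 13.8% and 14% in T-bet int, and from 6.85% up to 8.06% among CD122-T-bet- cells.

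Klra1, an inhibitory receptor of the Ly49 family, had a Fano factor of 3.58 in T-bet high cells, where 25 of 147 cells held it and 5 cells held 66.7% of its 99 transcripts. Ccl5 had one of 4.26 in T-bet high and 7.95 in T-bet int cells.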
